A study of Mus musculus with 4 samples.

Results

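The 8 genes described here, Igf2, Ascl2, Tspan32, Cd81, Cdkn1c, Slc22a18, Phlda2 and Nap1l4, lie in the imprinted domain at the distal end of mouse chromosome 7. They were taken by gene symbol, and all 8 were present among the 20299 genes listed. Strand-specific RNA sequencing had been applied to 1 library for each of 4 sorted cell fractions of the fetal gonad at 15.5 days post coitum (dpc): male germ cells, female germ cells, male gonadal somatic cells and female gonadal somatic cells. Every fraction came from fetuses of CF1 mothers and TgOG2 fathers, so the transgene, an Oct4 promoter driving enhanced green fluorescent protein (EGFP) in germ cells, was shared by all 4. Germ cells were the EGFP-positive and somatic cells the EGFP-negative part of the sort, and the somatic fraction is therefore every other cell of the gonad and not 1 cell type.

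Imprinted genes are transcribed mainly from the copy of 1 parent, because a methylation mark laid down in the egg or sperm at a control region sets which copy is active. In the distal chromosome 7 domain one control region lies between Igf2 and H19 and leaves Igf2 active on the paternal copy, and another lies within Kcnq1 and keeps its neighbours, among them Cdkn1c, Slc22a18, Phlda2 and Ascl2, active on the maternal copy. Several members, such as Ascl2, Tspan32 and Cd81, are known as imprinted in the placenta rather than in the embryo. Fetal germ cells erase these marks, and those of males begin to lay down the paternal pattern late in gestation. The deposited values do not separate the parental copies, so everything below is total RNA of both copies. The labels do not say whether counting used strand, so reads of an antisense partner cannot be told from those of the gene.

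In the files' mm9 coordinates the 8 genes span 898 kb, from 149836672 to 150734995. Levels are given as scaled signal per 1000000 (SPM), which is the deposited signal of a gene divided by its library's total after adjustment by trimmed mean of M values (TMM). They compare libraries and not genes. The depth estimated from the spacing of low values was 17.5 M to 24.9 M fragments per library (M, 1000000), and 3 fragments, taken as the floor of detection, were worth 0.113 to 0.181 SPM.

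The sort separated the marker genes as follows. The 7 germ cell markers summed to 5139 and 5123 SPM in the male and the female germ library, against 31.2 and 10.3 SPM in the male and the female somatic library, which is 0.607% and 0.202% of the germ level of the same sex. The 8 stroma markers summed to 211 and 60.7 SPM in the male and the female germ library, against 16283 and 6047 SPM in the somatic cells, with no marker at 0, and germ cells thus held 1.30% and 1.003% of the somatic level of their sex. For the 6 red blood cell markers the shares were 0.962% and 0.827%, with 3 markers at 0 in female germ cells. For the 6 endothelial markers they were 30.4% and 11.2%, for the 7 Sertoli markers 4.19% and 13.8%, and for the 5 fetal Leydig markers 7.80% and 12.7%. The female shares of the Sertoli and Leydig markers rest on low sums, 42.0 and 90.5 SPM in female somatic cells. In female germ cells 1 Sertoli and 3 Leydig markers were at 0. In bulk samples, fewer cells of a type and less RNA per cell cannot be told apart.

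The members comprised germ-high, somatic-high and mixed genes. For 4 of them the stretch before the start is shown, because a CpG-poor and a CpG-rich start stood side by side both in the germ-high and in the somatic-high pair. Slc22a18 and Phlda2 were the germ-high pair, and Tspan32 and Cd81 are neighbours that stood higher in somatic cells. Each sequence is the 250 bases before the annotated start, taken 5′ to 3′ on the gene's strand from RefSeq on GRCm38.p6, with each CpG dinucleotide in capitals. RefSeq starts were matched by symbol for 6 of the 8 members.

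Slc22a18, chr7:143473539-143473788, plus strand: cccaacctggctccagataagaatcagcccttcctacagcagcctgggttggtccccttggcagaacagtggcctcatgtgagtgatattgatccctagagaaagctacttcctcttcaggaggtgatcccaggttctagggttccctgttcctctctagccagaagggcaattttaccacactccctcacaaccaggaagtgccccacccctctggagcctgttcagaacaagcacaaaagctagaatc

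Phlda2, chr7:143502525-143502774, minus strand: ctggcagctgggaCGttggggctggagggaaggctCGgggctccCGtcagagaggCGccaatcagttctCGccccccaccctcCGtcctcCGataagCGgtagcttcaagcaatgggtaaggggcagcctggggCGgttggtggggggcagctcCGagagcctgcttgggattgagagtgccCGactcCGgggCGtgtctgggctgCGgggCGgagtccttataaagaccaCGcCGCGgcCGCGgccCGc

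Tspan32, chr7:143004796-143005045, plus strand: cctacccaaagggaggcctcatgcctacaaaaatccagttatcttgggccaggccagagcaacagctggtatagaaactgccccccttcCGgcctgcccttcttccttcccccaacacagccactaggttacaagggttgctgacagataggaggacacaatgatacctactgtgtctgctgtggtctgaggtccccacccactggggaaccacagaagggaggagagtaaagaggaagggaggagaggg

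Cd81, chr7:143052500-143052749, plus strand: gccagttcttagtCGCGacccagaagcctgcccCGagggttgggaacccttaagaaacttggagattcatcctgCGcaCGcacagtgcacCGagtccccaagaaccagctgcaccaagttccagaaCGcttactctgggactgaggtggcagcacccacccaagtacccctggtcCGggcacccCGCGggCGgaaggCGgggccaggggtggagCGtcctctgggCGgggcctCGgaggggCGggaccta

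The pair of neighbouring germ-high genes differed in this stretch: Slc22a18 held 0 CpG and Phlda2 held 21. The median over 32851 annotated starts was 6, with quartiles of 2 and 16. The somatic-high pair differed in the same way, with 1 CpG before Tspan32 and 16 before Cd81. Ascl2 held 19, and the 4 annotated starts of Igf2 held 1, 10, 22 and 6 from the most upstream to the most downstream. The GC box GGGCGG, searched on both strands and found before 32.7% of all starts, occurred 2 times before Phlda2, 3 times before Cd81 and 1 time before Ascl2, and was not found before Slc22a18 or Tspan32. The letters TATAAA, found on either strand before 12.4% of all starts, occurred once before Phlda2, and not before the other 3 genes shown. These matches describe the letters of the window only.

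**Figure D1:**
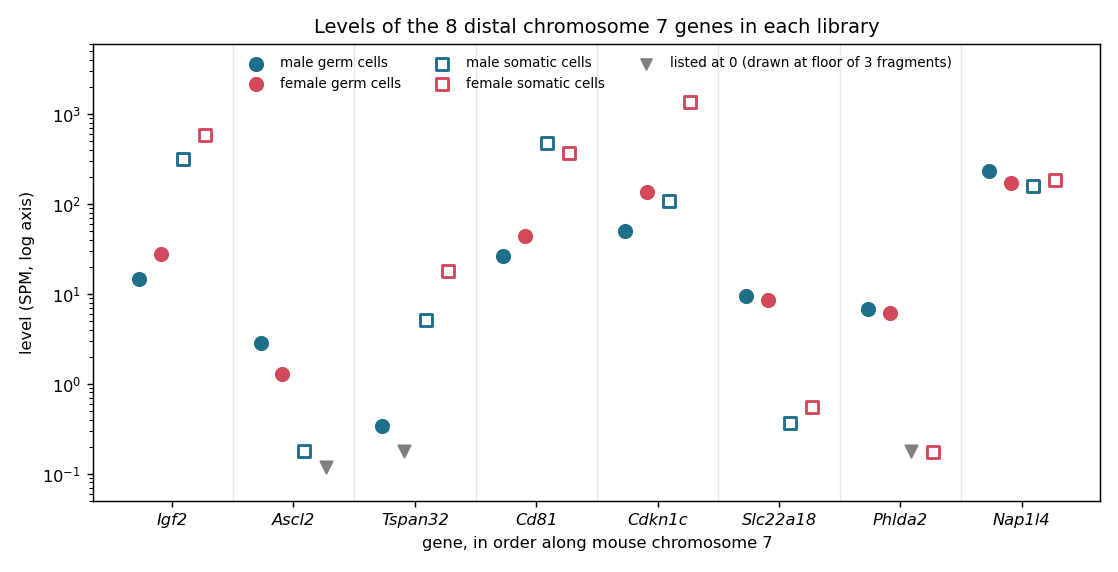
Level of each of the 8 genes in each library, in SPM on a log axis, with genes in chromosomal order; filled circles are germ cells, open squares somatic cells, and grey triangles values listed at 0, drawn at the floor of 3 fragments. Germ cells stand below both somatic libraries for Igf2, Tspan32 and Cd81, and above them for Ascl2, Slc22a18 and Phlda2.

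Igf2 encodes insulin-like growth factor 2, the fetal growth factor of the domain (minus strand, 149836672 to 149846940). It stood at 14.6 SPM in male and 27.5 SPM in female germ cells, against 319 SPM in male and 581 SPM in female somatic cells. Both germ libraries lay far below both somatic libraries. Igf2 fell in germ cells by 4.39 ± 0.54 on the log2 scale (SE, n = 2 against 2 libraries, limma adjusted p = 0.0336).

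The fit compared 2 germ with 2 somatic libraries over 14148 genes, the male and the female library standing as the pair of samples on each side. Over all genes, 2.50% passed as higher and 5.56% as lower in germ cells at an adjusted p under 0.05. All 8 members were tested, and 2 passed as higher and 2 as lower, which is 4 of 8 against 8.06% of all genes in either direction. With sex added as a blocking term, 2 passed as higher and 4 as lower, against 7.73% and 13.8% of all genes. The members were chosen with earlier results of these data known, so nothing about them as a set is read from these counts. The same holds for the lists further below. Igf2, Cd81, Cdkn1c and Nap1l4 stood above 1 SPM in every library. Slc22a18, Phlda2 and Ascl2 entered the test through their germ libraries alone, and Tspan32 through its somatic libraries alone, so a difference was built into their entry. Nothing in the labels ties a library to separate animals, so each p reflects only how far these 4 libraries scatter. In the main fit any difference between the male and the female library of a cell type counts as scatter. That scatter is partly pooled over all genes by limma. The pooled part weighed 3.15 degrees of freedom against a gene's own 2 in the main fit. With the sex term it weighed 25.7 against 1.

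Within each sex the Igf2 gap was of like size. Male germ cells stood 21.8-fold below male somatic cells, with a 95% counting interval of 19.7 to 24.2, and female germ cells 21.1-fold below female somatic cells (19.2 to 23.2). Germ cells thus held 4.59% of the somatic Igf2 level in males and 4.74% in females, beside 1.30% and 1.003% for the summed stroma markers and 30.4% and 11.2% for the summed endothelial markers. The endothelial share differed by marker. Kdr stood at 2.79 and 2.17 SPM in the male and the female germ library, against 72.8 and 182 SPM in the somatic cells of the same sex, and Pecam1 at 15.9 and 17.3 SPM, against 13.97 and 14.9 SPM. The part of other cells in the germ level was not tested. Intervals on single libraries cover counting error only. Under the other scalings the Igf2 gap was 17.5 to 20.04-fold in males and 19.8 to 22.8-fold in females.

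The tetraspanin gene Cd81 (plus strand, 150238654 to 150253835), whose product organises membrane protein complexes, followed the same direction. It stood at 26.04 SPM in male and 43.7 SPM in female germ cells, against 471 SPM in male and 368 SPM in female somatic cells. The groups did not overlap, and Cd81 fell by 3.61 ± 0.44 on the log2 scale (limma adjusted p = 0.0336). The gap was 18.1-fold in males (16.7 to 19.6) and 8.42-fold in females (7.81 to 9.09).

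Tspan32, a tetraspanin gene of blood cells (plus strand, 150190950 to 150205390), was low in germ cells. It stood at 0.338 SPM, from about 9 fragments, in male germ cells with a listed 0 in the female germ library, against 5.09 SPM in male and 18.01 SPM in female somatic cells. The somatic libraries were both above the germ libraries, but the log2 ratio of -3.97 ± 0.85 did not pass (limma adjusted p = 0.0541). With sex as a blocking term it passed (limma adjusted p = 0.00318), and it also passed when the filter was raised to 5 SPM (limma adjusted p = 0.0444). The first of these passes leaned mostly on the scatter pooled over all genes. The pass at 5 SPM left the log2 ratio unchanged and was adjusted over 11774 genes rather than 14148. Tspan32 entered that test too through its somatic libraries alone. Male germ cells stood 15.04-fold below male somatic cells (7.56 to 34.02), and female germ cells at least 100.4-fold below female somatic cells. The 6 leukocyte markers summed to 4.67 and 4.28 SPM in the male and the female germ library against 135 and 41.3 SPM in somatic cells. In somatic cells the markers were higher in males and Tspan32 was higher in females. In germ cells Tspan32 was higher in males. There the leukocyte markers were split: Csf1r, Cd68 and Fcer1g were higher in males and Lyz2 and Tyrobp in females, with Ptprc listed at 0 in both. Their part in this gene's level was not tested.

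Slc22a18 and Phlda2 rose in germ cells and are direct neighbours on opposite strands, their 3′ ends 2214 bases apart. Slc22a18 encodes an organic cation transporter-like membrane protein (plus strand, 150659659 to 150685237), and Phlda2 a small pleckstrin homology domain protein that restrains placental growth (minus strand, 150687452 to 150688429). Slc22a18 stood at 9.44 SPM in male and 8.49 SPM in female germ cells, against 0.364 SPM in male and 0.555 SPM in female somatic cells. Phlda2 stood at 6.81 SPM in male and 6.16 SPM in female germ cells, against a listed 0 in male and 0.175 SPM, from about 4 fragments, in female somatic cells. For both genes the germ libraries lay close together and well above the somatic ones. The log2 ratios were 3.31 ± 0.63 for Slc22a18 (limma adjusted p = 0.0452) and 3.59 ± 0.61 for Phlda2 (limma adjusted p = 0.0386). These sizes depend on the 0.5 SPM added before taking logs, and with 0.1 SPM added Slc22a18 no longer passed (4.04, limma adjusted p = 0.0534).

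As plain ratios, Slc22a18 was 25.9-fold higher in male germ than male somatic cells (11.7 to 71.3) and 15.3-fold higher in female germ than female somatic cells (8.83 to 28.7). Phlda2 was at least 37.7-fold higher in males and 35.2-fold higher in females (13.3 to 132). The somatic level of Slc22a18 was 3.86% of the germ level in males and 6.53% in females, above the 0.607% and 0.202% of the germ cell markers, on 6 and 14 fragments.

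Ascl2, a basic helix-loop-helix transcription factor gene needed for the placenta (minus strand, 150152726 to 150155169), had the same order at a lower level. It stood at 2.87 SPM in male and 1.29 SPM in female germ cells, against 0.177 SPM, from about 3 fragments, in male somatic cells and a listed 0 in female somatic cells. Both germ libraries were above both somatic ones, but the log2 ratio of 2.08 ± 0.63 did not pass (limma adjusted p = 0.0968). The ratio was 16.2-fold in males (5.34 to 80.3) and at least 10.8-fold in females.

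By size alone, at 2-fold or more with at least 5 SPM in the higher library, 2 of the 8 members were higher and 4 lower in male germ than male somatic cells, against 24.4% and 32.1% of 12636 genes. In females the same 2 were higher and the same 4 lower, against 27.2% and 34.0% of 12245 genes. These were Slc22a18 and Phlda2 on one side and Igf2, Tspan32, Cd81 and Cdkn1c on the other. Of the 8 members, 3 had both germ libraries above both somatic ones, against 28.5% of all genes tested, and 3 had both below, against 33.8%. With 8 genes, nothing about the members is read from these counts.

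**Figure D2:**
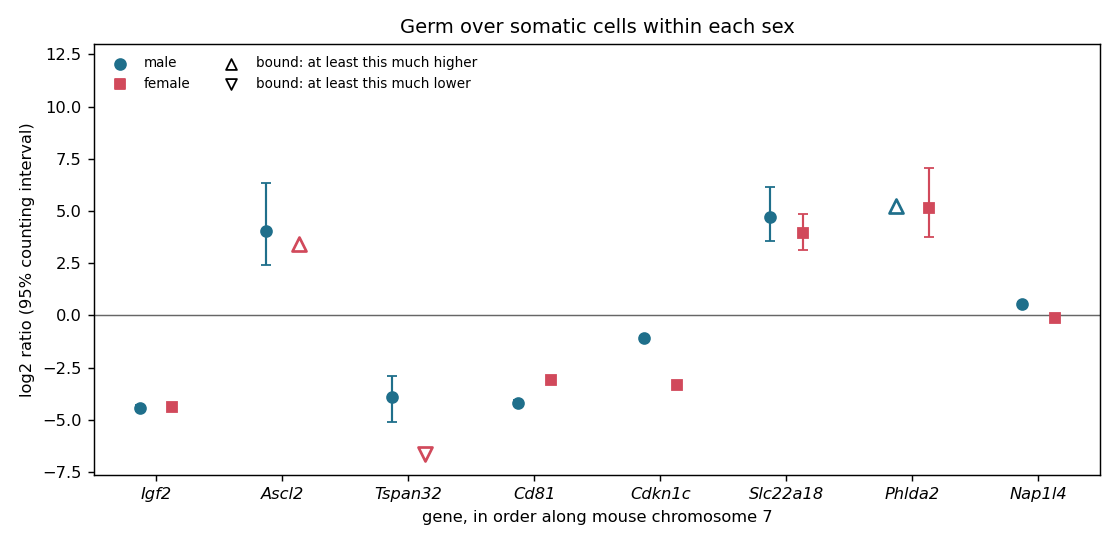
Log2 ratio of germ over somatic cells within each sex for the 8 genes, with 95% counting intervals on 1 library against 1; open triangles are bounds where a library was listed at 0. Under TMM scaling Igf2 lies near 21-fold lower in germ cells of both sexes. Cdkn1c was 2.15-fold lower in germ cells of males and 9.99-fold lower in those of females.

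Cdkn1c, which encodes the cyclin-dependent kinase inhibitor p57 (minus strand, 150644243 to 150646955), had the widest gap between the sexes of the members measured above the floor in both libraries of a cell type. It stood at 50.4 SPM in male and 134 SPM in female germ cells, against 108 SPM in male and 1342 SPM in female somatic cells. Female germ cells lay above male somatic cells, so the groups overlapped, and the germ over somatic log2 ratio of -2.21 ± 1.26 did not pass (limma adjusted p = 0.296). In that fit its difference between the sexes counts as scatter. With sex as a blocking term Cdkn1c passed (limma adjusted p = 0.0139). That pass leaned mostly on the scatter pooled over all genes. The log2 ratio was -0.39 without the female somatic library and -4.02 without the male somatic library. Germ cells stood 2.15-fold below somatic cells in males (2.00 to 2.31) and 9.99-fold below in females (9.57 to 10.4). Under the other scalings the male gap was 1.73 to 1.98-fold, under the 2-fold line used here.

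Nap1l4, a nucleosome assembly protein gene at the edge of the domain (minus strand, 150699483 to 150734995), was the member with the most even level. It stood at 233 SPM in male and 171 SPM in female germ cells, against 158 SPM in male and 187 SPM in female somatic cells. The groups overlapped, and the log2 ratio was 0.22 ± 0.39 (limma adjusted p = 0.739).

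The 4 calls were those of Igf2, Cd81, Slc22a18 and Phlda2. Without the male or without the female somatic library these calls were lost, as were most calls over all genes. That loss is therefore not particular to these 4 genes. Their log2 ratios kept their sign, at -4.82 to -3.43 for the first 2 genes and 3.16 to 3.803 for the last 2. Without the male or without the female germ library the 4 calls were kept, and calls over all genes became more numerous. The ratios were then -4.83 to -3.24 for the first 2 genes and 3.23 to 3.65 for the last 2. Leaving out a library leaves its cell type without a replicate, so only the ratios are given. With no filter on low values none of the 4 passed (limma adjusted p 0.0637 to 0.0941), and 0 of 18703 genes passed in either direction.

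Males and females were compared within each cell type with 1 library against 1, so no test was possible. The same size rule was applied. In germ cells, 26.8% of 11766 genes were higher and 26.3% lower in males by this rule, and in somatic cells 9.61% and 8.26% of 11835 genes. Of the 8 members, 0 were higher in male than female germ cells and 1, Cdkn1c, was lower. In somatic cells 0 were higher and 2, Cdkn1c and Tspan32, were lower in males.

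Cdkn1c stood 2.66-fold lower in male than female germ cells (2.49 to 2.85) and 12.4-fold lower in male than female somatic cells (11.8 to 12.99). The 5 pregranulosa markers, genes of the supporting cells of the ovary, summed to 102 SPM in male and 999 SPM in female somatic cells, and to 25.9 and 27.8 SPM in the male and the female germ library, with Foxl2 listed at 0 in male germ cells and Irx3 in male somatic cells. Every marker was higher in female than male somatic cells. Fst stood at 7.43 SPM in male and 704 SPM in female somatic cells, and Wnt4 at 85.6 and 136 SPM. In germ cells Rspo1 was higher in males, at 10.01 against 3.54 SPM, and the other markers were higher in females. The part of pregranulosa cells in the Cdkn1c difference was not tested. Tspan32 was 3.54-fold lower in male than female somatic cells (2.80 to 4.52), at 5.09 against 18.01 SPM.

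Igf2 was lower in males in both cell types, 1.88-fold in germ cells (1.64 to 2.16) and 1.82-fold in somatic cells (1.76 to 1.88). Under the other scalings these factors were 1.55 to 1.82 in germ cells and 1.80 to 1.99 in somatic cells. The summed stroma markers had the opposite order of the sexes in both cell types. Among them Nr2f2 had the Igf2 order in germ cells, at 1.39 SPM in males and 1.97 SPM in females, and the other markers were higher in males. The part of stroma in the Igf2 levels was not tested. Slc22a18 and Phlda2 had male over female ratios of 1.11 (0.901 to 1.38) and 1.11 (0.863 to 1.42) in germ cells, within counting error of 1, and under the other scalings the ratios reached 1.35 and 1.34. Their somatic levels were too near the floor to compare. Ascl2 was 2.22-fold higher in male than female germ cells (1.37 to 3.75), below the 5 SPM needed to be counted. Tspan32 in male germ cells was at least 1.89-fold higher than in female germ cells, on about 9 fragments.

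**Figure D3:**
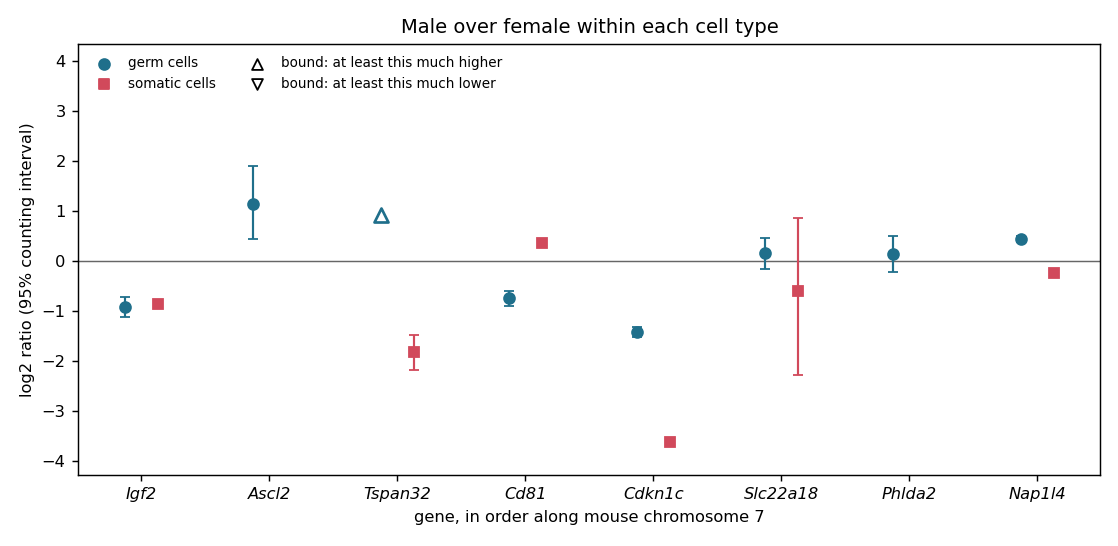
Log2 ratio of male over female libraries for the 8 genes in germ cells (circles) and somatic cells (squares), with 95% counting intervals; the open triangle is a bound, and ratios with both libraries near the floor are left out. Cdkn1c has the most negative ratio in both cell types, and Igf2 was 1.88-fold and 1.82-fold lower in males under TMM scaling.

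Levels of different genes were set side by side after division by the length column, as SPM per kb. The labels do not define that length. Nap1l4 was the highest member in both germ libraries, at 101 SPM per kb in male and 74.4 in female germ cells, above 97.1% and 94.5% of genes. Cdkn1c came next, at 25.9 SPM per kb in male and 69.05 in female germ cells, then Cd81 at 17.1 and 28.6. Phlda2, at 9.22 and 8.34 SPM per kb, and Slc22a18, at 5.76 and 5.18, stood near the middle of the range, above 60.4% to 68.5% of genes in germ cells. Igf2, at 3.45 SPM per kb in male and 6.49 in female germ cells, stood below Phlda2 in both. Ascl2 was lower still, at 1.78 and 0.800 SPM per kb, and Tspan32 last, at 0.184 in male germ cells.

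In somatic cells the order was another. Cd81 was the highest member in the male library at 309 SPM per kb, above 99.4% of genes, and Cdkn1c in the female library at 690 SPM per kb, above 99.9%. Igf2 stood at 75.2 SPM per kb in male and 137 in female somatic cells. Slc22a18 and Phlda2, at 0.222 and 0 SPM per kb in male and 0.338 and 0.237 in female somatic cells, were near the bottom together with Ascl2.

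The genes whose levels followed those of 5 members most closely were found by Euclidean distance over the 4 libraries, on log2(SPM + 0.5) centred on each gene's mean, among 13255 other genes with at least 5 SPM in some library. With 4 libraries this likeness is a description only. The nearest to Slc22a18 were Ccdc13, Tdrd7, which encodes a germ granule tudor protein, and Fbxo2, at distances of 0.177 to 0.228, and Phlda2 ranked number 6 at 0.298. The nearest to Phlda2 were Gnaz, Rbmxl2 and Ccdc13 at 0.170 to 0.280, and Slc22a18 ranked number 4. Both neighbours were thus among the closest matches of each other, at levels low enough that the added 0.5 SPM weighs on the distance.

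Igf2 was most like Tmem176a, Tmem176b and Junb, an early response transcription factor gene, at 0.132 to 0.205, and Cd81 ranked 207th. Cdkn1c was most like Ociad2, Foxl2, the transcription factor gene of granulosa cells, and Dmrta1 at 0.404 to 0.512. Ascl2 was most like Wdr3, Ctps and Ttll11 at 0.081 to 0.196, and Slc22a18 ranked 1585th. Nap1l4 stood 4745th for Phlda2, its other neighbour, 11.05 kb away.

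The other genes of the domain were taken from a list of 22, of which 20 were measured and 16 tested. H19 and Kcnq1ot1 were not analysed here. In germ cells 2 of the 16 rose, both members, and 4 fell, among them Trpm5 and Osbpl5 beside Igf2 and Cd81, against 2.50% and 5.56% of all genes. The list's median log2 ratio was -0.48, against -0.11 over all genes tested. It was -0.21 without the female germ library, -0.20 without the female somatic library, -0.95 and -0.23 with 0.1 and 2 SPM added before taking logs, -0.17 with the filter at 5 SPM and 0.20 with no filter. Trpm5, a cation channel gene, stood at 2.45 and 0.858 SPM in the male and the female germ library, against 112 and 64.6 SPM in the male and the female somatic library, and fell by 5.42 ± 0.73 on the log2 scale (limma adjusted p = 0.0352). Osbpl5, an oxysterol-binding protein gene, stood at 4.99 and 2.64 SPM in the male and the female germ library, against 105 and 77.3 SPM in somatic cells, and fell by 4.45 ± 0.61 on the log2 scale (limma adjusted p = 0.0352).

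Of the 12 measured genes of the list other than the members, the size rule counted 1 as higher in male than female germ cells, Tnfrsf26, against 26.8% of all genes. It counted 1 as lower in male than female somatic cells, Kcnq1, against 8.26%. Kcnq1, the potassium channel gene that hosts the control region, stood at 0.421 SPM in male and 3.60 SPM in female germ cells, against 1.42 SPM in male and 23.7 SPM in female somatic cells. It was 16.7-fold lower in male than female somatic cells (11.1 to 26.3) and, below the 5 SPM needed to be counted, 8.56-fold lower in male than female germ cells (4.46 to 18.05), the same order in each library as its neighbour Cdkn1c. Tnfrsf26, a decoy death receptor gene, stood at 9.48 SPM in male and 0.660 SPM in female germ cells, a ratio of 14.4 (7.89 to 29.1), against 0.0984 SPM in male and 0.175 SPM in female somatic cells. Tnfrsf26, Tnfrsf23, Th and Ins2 reached 1 SPM in fewer than 2 libraries and were not tested.

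**Figure D4:**
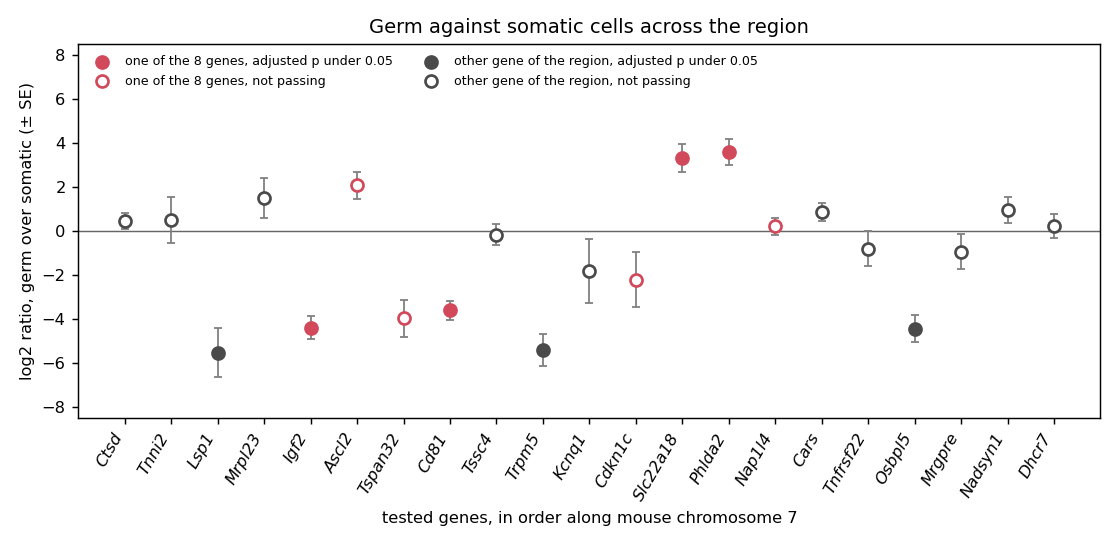
Log2 ratio of germ over somatic cells, with SE, for the 21 tested genes within 500 kb of the outermost members, in chromosomal order; filled points passed at a limma adjusted p under 0.05, and red points are among the 8 genes. Of the 7 genes that passed, Slc22a18 and Phlda2 lie above 0 and 5 below.

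Within 500 kb on either side of the members the files list 34 genes, of which 21 were tested, 2 rose and 5 fell in germ cells, against 2.50% and 5.56% of all genes. The one of these outside that list was Lsp1, a leukocyte actin-binding protein gene, at 7.11 and 0.897 SPM in the male and the female germ library, against 299.5 and 74.8 SPM in the male and the female somatic library (log2 ratio -5.53 ± 1.11, limma adjusted p = 0.0496). Of 11 genes of the flanks not known as imprinted, 9 were tested, 0 rose and 2 fell, against 2.50% and 5.56% of all genes, Lsp1 and the cortactin gene Cttn (log2 ratio -2.66 ± 0.50, limma adjusted p = 0.0445). By the size rule 3 of the 11 flanking genes were higher and 2 lower in male than female germ cells, against 26.8% and 26.3% of all genes. In somatic cells 1 was higher and 1 lower in males, against 9.61% and 8.26%. Lsp1 was higher in males in both cell types, and Mrpl23 and Shank2 were higher in male germ cells. Cttn and Fadd were lower in male germ cells, and Ano1 was lower in male somatic cells.

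The insulin-like growth factor (IGF) genes were followed because Igf2 is one of them. Of 16 genes, 15 were tested, 0 rose and 5 fell in germ cells, against 2.50% and 5.56% of all genes, with a median log2 ratio of -1.61 against -0.11 over all genes. Beside Igf2 these were Irs1, which encodes an adaptor below the receptors (-4.34 ± 0.50), and the binding protein genes Igfbp4 (-6.01 ± 0.44), Igfbp5 (-6.43 ± 0.46) and Igfbp6 (-3.89 ± 0.78), with limma adjusted p of 0.0328, 0.0328, 0.0328 and 0.0493 in that order. Igfbp6 entered the test through its somatic libraries alone. Igfbp5 stood at 11.6 and 15.01 SPM in the male and the female germ library, against 887 and 1567 SPM in the male and the female somatic library.

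The signalling receptor gene Igf1r stood at 199 and 192 SPM in the male and the female germ library, against 335 and 193 SPM in the male and the female somatic library, and its log2 ratio of -0.38 ± 0.43 did not pass (limma adjusted p = 0.589). Igf2r, whose product clears the ligand, stood at 341 and 991 SPM in the male and the female germ library, against 1178 and 837 SPM in the male and the female somatic library, and did not pass (limma adjusted p = 0.448). Igf2r was 2.91-fold lower in male than female germ cells (2.84 to 2.98), and Insr 3.34-fold lower (3.06 to 3.64). Igf1 was 33.5-fold higher in male than female germ cells (15.2 to 92.1), on about 6 fragments in the female library, and in somatic cells Igfbp3 exceeded the female level 3.97-fold in males (3.78 to 4.17) and Igfbp6 2.20-fold (1.82 to 2.66). Igfbp2 was 6.72-fold higher in male than female germ cells (5.95 to 7.62) and 6.34-fold lower in male than female somatic cells (5.92 to 6.80).

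**Figure D5:**
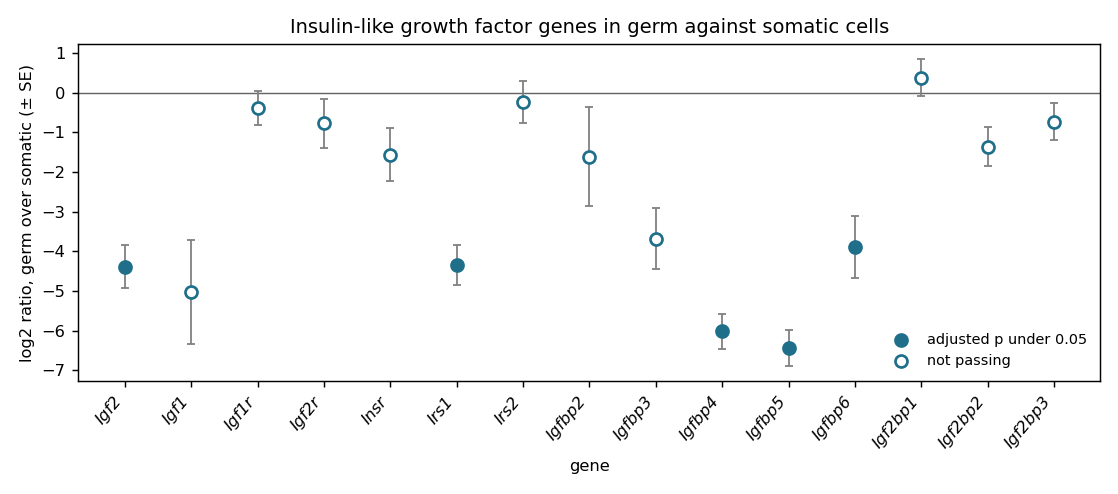
Log2 ratio of germ over somatic cells, with SE, for the 15 tested IGF genes; filled points passed at a limma adjusted p under 0.05. Igf2, Irs1, Igfbp4, Igfbp5 and Igfbp6 passed as lower, while Igf1r and Igf2r lie within 1 of 0.

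Factors that act at imprinting control regions were followed as a second list. Of 17 genes 16 were measured and tested (Zfp57 was not analysed here), 1 rose in germ cells, the pluripotency-associated gene Zfp42 (4.89 ± 0.65, limma adjusted p = 0.0347), and 0 fell, against 2.50% and 5.56% of all genes, with a median log2 ratio of 0.16. Zfp42 stood at 18.6 and 12.9 SPM in the male and the female germ library, against a listed 0 and 0.0778 SPM in somatic cells. It entered the test through its germ libraries alone, so a difference was built into its entry. Ctcf, the boundary factor of the Igf2 control region, stood at 47.5 and 68.4 SPM in the male and the female germ library, against 100.4 and 99.4 SPM in the male and the female somatic library, and did not pass (-0.80 ± 0.42, limma adjusted p = 0.261). Its germ line paralogue Ctcfl stood at 8.18 and 1.74 SPM in the male and the female germ library, against 0.266 and 0.0681 SPM in somatic cells, and did not pass (limma adjusted p = 0.102). By the size rule 9 of these genes were higher in male than female germ cells (Ctcfl, Dppa3, Dnmt3a, Dnmt3b, Dnmt3l, Tet1, Kdm1b, Eed and Ehmt2) and 2 lower (Uhrf1 and Ezh2), against 26.8% and 26.3% of all genes. In somatic cells Ezh2 alone was counted, 2.01-fold higher in males (1.88 to 2.15), and under upper-quartile and total scaling its ratio was 1.96 and 1.83, under the 2-fold line.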

How the data were processed

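Total RNA of 4 flow-sorted fractions was depleted of ribosomal RNA and sequenced as paired-end libraries, per the labels' protocols. Per the submitters' processing notes, the mm9 build, TopHat 1.2.0 and CASAVA 1.9 were used, in roles those notes do not state here. The deposited value is a gene-level signal headed counts. It is not a raw count: low values cluster at a spacing of 4.105 (male germ cells), 6.067 (female germ cells), 6.115 (male somatic cells) and 4.105 (female somatic cells), and library totals lie between 99.3 M and 107.5 M (M, 1000000). The spacing was taken as 1 fragment; 43.1% to 54.3% of values up to 60 lay within 0.5 of a multiple, against 15% to 23.3% of whole numbers.

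Of 20373 rows, 74 duplicates in position and value were dropped. TMM factors were 1.07, 0.956, 0.945 and 1.03 in that order of libraries. Germ and somatic cells were compared by limma-trend (limma 3.58.1, R 4.3.3) on log2(SPM + 0.5), with Benjamini-Hochberg adjustment over all genes and a threshold of 0.05, for genes that reached 1 SPM in 2 or more libraries. This scale understates the change of low genes. The fit was also run on simulated data. These held no difference between the sexes and no change in genes of low level, so they do not cover either case. Ratios of single libraries carry an exact conditional binomial 95% interval on estimated fragments, or a bound against a floor of 3 fragments. PCR copies cannot be told from separate molecules. Named genes were the 8 members, list genes that passed or met the size rule, and the 3 nearest genes of 5 members. Igf1r, Ctcf and the single marker genes lie outside that rule and were chosen after their values were seen. List genes named only as not tested or not analysed lie outside it too. Members and lists were chosen with earlier results of these data known. Alternatives changed the scaling, added constant, filter, size rule, sex term and libraries used.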

Additional observations from a re-analysis of the deposited data

Results flagged for a closer look

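Several genes moved in opposite directions in the 2 sexes or the 2 cell types. Each rests on 1 library per group, and the differences between the effects were not tested. Cd81 was lower in male than female germ cells, at 0.596 of the female level, and 1.28-fold higher in male than female somatic cells. Nap1l4 was 1.48-fold higher in germ than somatic cells of males and stood at 0.917 of the somatic level in females, so that its male over female ratio was 1.36 in germ cells and 0.845 in somatic cells. Under the other scalings its germ over somatic ratio in females was 0.847 to 0.976, the highest of these close to no change.

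Of the genes outside the 8, Igfbp2 was 2.12-fold higher in germ than somatic cells of males and at 0.0497 of the somatic level in females, with male over female ratios of 6.72 in germ cells and 0.158 in somatic cells. Ezh2, a histone H3 methyltransferase gene, had male over female ratios of 0.278 in germ cells and 2.01 in somatic cells. Ehmt2, a histone methyltransferase gene, was 4.01-fold higher in germ than somatic cells of males and at 0.377 of the somatic level in females. These directions were kept under the 3 other scalings, although the somatic ratio of Ezh2 was 1.96 and 1.83 under upper-quartile and total scaling.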

How the results depend on the processing

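With no filter on low values 18703 genes were tested by limma, 0 rose and 0 fell over all genes (4625 had an unadjusted p under 0.05), 0 members and 0 genes of the distal list passed in either direction, and the list's median log2 ratio was 0.20. The added constant of 0.1 SPM and upper-quartile scaling each left 1 member, and 1 gene of the list, as higher, Slc22a18 no longer passing (limma adjusted p 0.0534 and 0.0512). Sex as a blocking term, which pairs the libraries by sex and acts as the replicate block, gave 1094 higher and 1955 lower over all genes and 4 members as lower. It ended none of the 4 calls. Leaving out 1 library gave 37 to 1670 higher and 21 to 1927 lower over all genes, 0 to 2 members higher and 0 to 2 lower, and 0 to 2 higher and 0 to 4 lower in the list. A cell type left with 1 library is then assumed to vary like the other. The log2 ratio of Nap1l4 was -0.0037 without male germ cells and 0.0970 to 0.44 without each of the others. By size, upper-quartile, total and median-of-ratios scaling each left 2 of the 4 members, Igf2 and Cd81, lower in male germ than male somatic cells. Upper-quartile scaling moved the median log2 ratio of all genes by 0.150 between germ and somatic cells and by 0.252 between male and female germ cells, and total scaling moved that of male over female germ cells by 0.148 and that of male over female somatic cells by -0.118. At 4-fold, 0 members were lower in male germ and 1 in male somatic cells than in females. At 20 SPM, 1 was lower in male than female somatic cells, and 0 were higher in germ than somatic cells of males or of females. The causes were not tested. Per-kb levels had no alternative length.

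Depth limits Ascl2, Slc22a18 and Phlda2 in somatic cells and Tspan32 in germ cells, which had at most 14 fragments there. Each group had 1 library, so differences between the sexes carry no replicate error.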
